A study of Homo sapiens with 21 samples.

Results

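The RNA of 40 genes that act in G2 phase and mitosis was followed in 7 clones of Panc-1 that had grown resistant to a drug. Panc-1 is an established human line from a carcinoma of the pancreatic duct. The genes were picked by symbol for their role in the cell cycle, with earlier results of these data known. Each of the 40 symbols had a row in the table of 58233 genes. All 40 passed the filter on low counts, among 18613 genes tested between drugs and 16504 tested between clones. ATUX8H and ATUX9D had grown out of cultures in ATUX, SMAP8D, SMAP9C and SMAP6G out of cultures in SMAP, and Sor6G and Sor9H out of cultures in Sorafenib, an inhibitor of RAF and other kinases. The series' text speaks of activators of the phosphatase PP2A where it lists these drugs. Per the labels' protocols, Panc-1 cells were passaged under stepwise rising drug for 4 months, diluted to colonies, and chosen for sequencing with the help of qRT-PCR. All 7 clones carry no stated engineered allele and were kept in 8 µM of their drug. Each is a clone that may share its culture of origin with the others of its drug. Each clone has 3 libraries, which are not stated to come from separate cultures, so that p-values between clones measure the spread between libraries, which may be technical. The parent line without drug was not analysed here, and each value below sets resistant clones against each other.

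Cells pass from G2 into mitosis when CDK1, bound to cyclin A or cyclin B, is switched on by CDC25 phosphatases. Aurora, Polo and NEK kinases then shape the spindle, the kinetochore ties chromosomes to it, checkpoint kinases hold back anaphase until every chromosome is attached, and the anaphase-promoting complex marks securin and cyclin B for destruction. The transcripts of these genes rise together late in the cell cycle. Their promoters are known for the cell cycle genes homology region, a short element bound by LIN54 in the MuvB complex, which works with B-MYB (the product of MYBL2) and FOXM1, and for CCAAT boxes bound by NF-Y. The RNA is measured here in bulk, so fewer cells in G2 or mitosis and less of the RNA per such cell cannot be told apart.

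Libraries held 21022621 to 27691256 counts, with 3.19 to 5.22% of them on mitochondrial genes. Levels are CPM, the counts scaled to a fixed library size with TMM factors, given as mean ± SD over the 3 libraries of a clone. A drug average is the mean ± SD over its clones, of which there are 2 for ATUX, 3 for SMAP and 2 for Sorafenib. Levels of different genes are compared only per length, as RPKM. Of 10 duct and epithelial markers, 9 reached 1 CPM in at least 1 library of each drug, led by KRT8, KRT18 and KRT19. CFTR was at 0 in all 21 libraries. CDH1 averaged 41.6 CPM in the ATUX, 8.95 in the SMAP and 0.715 in the Sorafenib clones, and EPCAM 5.56, 1.97 and 2.92 in that order. The sum of the 10 markers ran from 7203 to 13500.0 CPM in the ATUX, 1497 to 3411 CPM in the SMAP and 3790.0 to 5458 CPM in the Sorafenib libraries. The blood marker CD3E and the islet markers INS and GCG were also at 0 in all 21, PTPRC reached at most 0.778 CPM, and the summed blood and endothelial markers ran from 0.58 to 3.39 CPM. The summed fibroblast markers ran from 25.0 to 58.4 CPM in the ATUX, 63.2 to 188 CPM in the SMAP and 15.5 to 22.4 CPM in the Sorafenib libraries, mostly COL1A1, which cancer lines can also express. The epithelial and the fibroblast sums did not overlap between drugs, and their part in the results below was not tested.

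Promoter windows of RefSeq (build GRCh38.p14), from 250 bases before to 50 bases after an annotated start, were matched by symbol for 34 of the 40 genes, in 41 windows. AURKA, BIRC5, FOXM1, TPX2, TTK and UBE2C had none. Both strands were searched for TTTGAA, a core of the homology region, for its variant TTTAAA, and for the box CCAAT, which reads ATTGG on the other strand. TTTGAA was in 27 of the 41 windows (65.9%), against 15.2% of 35116 windows of all genes, and TTTAAA in 15 (36.6%), against 12.2%. CCAAT was in 31 of the 41 (75.6%), against 34.6% of all. At least 2 CCAAT boxes together with 1 of the cores were in 18 windows (43.9%), against 2.73% of all. By gene, 29 of the 34 had a core and 27 had a CCAAT box in a window. These are matches of letters, not measured binding sites. The windows of 6 genes are shown, those with the largest differences between ATUX and Sorafenib among the genes given with all clone values whose window holds a core, with every match on either strand in capitals. Where a gene has several windows, the one whose start is nearest to the deposited gene's 5′ end is shown. The windows of KIF20A and SPC25 lie wholly inside the deposited genes.

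CCNB1 (chr5:69166900-69167199, plus strand): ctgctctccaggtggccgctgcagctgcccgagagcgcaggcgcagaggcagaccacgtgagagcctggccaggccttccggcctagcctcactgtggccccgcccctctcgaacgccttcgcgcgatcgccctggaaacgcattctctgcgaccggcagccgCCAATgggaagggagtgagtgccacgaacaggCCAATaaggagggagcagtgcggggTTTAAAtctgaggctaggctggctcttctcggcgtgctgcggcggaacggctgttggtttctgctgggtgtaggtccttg
KIF20A (chr5:138178862-138179161, plus strand): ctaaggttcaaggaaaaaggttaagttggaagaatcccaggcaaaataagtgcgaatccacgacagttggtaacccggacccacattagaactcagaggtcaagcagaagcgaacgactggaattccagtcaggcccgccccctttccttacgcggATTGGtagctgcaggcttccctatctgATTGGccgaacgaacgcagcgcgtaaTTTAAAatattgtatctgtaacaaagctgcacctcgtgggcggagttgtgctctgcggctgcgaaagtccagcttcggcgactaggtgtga
PTTG1 (chr5:160421605-160421904, plus strand): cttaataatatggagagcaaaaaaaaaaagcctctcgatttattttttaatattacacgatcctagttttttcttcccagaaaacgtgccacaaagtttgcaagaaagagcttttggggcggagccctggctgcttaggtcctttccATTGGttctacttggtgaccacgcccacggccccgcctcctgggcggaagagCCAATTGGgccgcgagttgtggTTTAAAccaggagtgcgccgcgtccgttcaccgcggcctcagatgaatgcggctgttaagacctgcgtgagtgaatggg
SPC25 (chr2:168890381-168890680, minus strand): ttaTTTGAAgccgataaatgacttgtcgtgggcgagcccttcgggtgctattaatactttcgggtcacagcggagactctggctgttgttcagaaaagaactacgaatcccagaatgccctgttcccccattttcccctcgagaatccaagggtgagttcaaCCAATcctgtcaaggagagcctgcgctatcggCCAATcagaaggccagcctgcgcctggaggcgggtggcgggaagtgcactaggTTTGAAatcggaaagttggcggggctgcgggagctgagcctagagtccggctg
TOP2A (chr17:40417847-40418146, minus strand): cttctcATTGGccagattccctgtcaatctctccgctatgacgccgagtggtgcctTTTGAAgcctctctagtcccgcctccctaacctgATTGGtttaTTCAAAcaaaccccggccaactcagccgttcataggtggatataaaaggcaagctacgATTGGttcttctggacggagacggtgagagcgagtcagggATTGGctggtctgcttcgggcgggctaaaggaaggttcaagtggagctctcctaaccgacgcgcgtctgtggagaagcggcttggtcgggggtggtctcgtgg
MKI67 (chr10:128126374-128126673, minus strand): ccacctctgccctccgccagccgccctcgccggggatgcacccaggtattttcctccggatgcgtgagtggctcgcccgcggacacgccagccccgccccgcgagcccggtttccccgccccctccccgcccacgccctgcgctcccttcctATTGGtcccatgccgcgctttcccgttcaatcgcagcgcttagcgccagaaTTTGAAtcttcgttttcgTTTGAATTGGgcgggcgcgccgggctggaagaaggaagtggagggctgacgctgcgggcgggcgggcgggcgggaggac

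CCNB1, KIF20A and PTTG1 held TTTAAA, with its first base at position -30, -41 and -29 from the annotated start in that order of genes, and SPC25, TOP2A and MKI67 held TTTGAA on 1 or the other strand. In MKI67 the second TTTGAA runs into ATTGG and shares a base with it, and in PTTG1 a CCAAT and an ATTGG overlap. The CCAAT boxes stood equally far apart in CCNB1 (positions -87 and -55) and SPC25 (positions -88 and -56). The MYBL2 window, which is not shown, held none of the 3 motifs.

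The 40 genes varied between clones of the same drug as well as between drugs. The 40 genes together took 6610.0 ± 212 CPM in ATUX8H, 8206 ± 416 CPM in ATUX9D, 7282 ± 155 CPM in SMAP8D, 5631 ± 122 CPM in SMAP9C, 6165 ± 400.1 CPM in SMAP6G, 6172 ± 96.1 CPM in Sor6G and 3302 ± 296 CPM in Sor9H. By library, the sum ran from 6463 to 8508 CPM under ATUX (median 7292), from 5536 to 7414 CPM under SMAP (median 6028) and from 3020 to 6279 CPM under Sorafenib (median 4852). Sor9H stood below every other clone, and Sor6G lay among the SMAP clones. Sor9H had the lowest clone mean of 38 of the 40 genes, and SMAP9C of the other 2, FOXM1 and ASPM. ATUX9D had the highest mean of 20 genes, SMAP8D and Sor6G of 9 each, and ATUX8H and SMAP6G of 1 each.

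**Figure D1:**
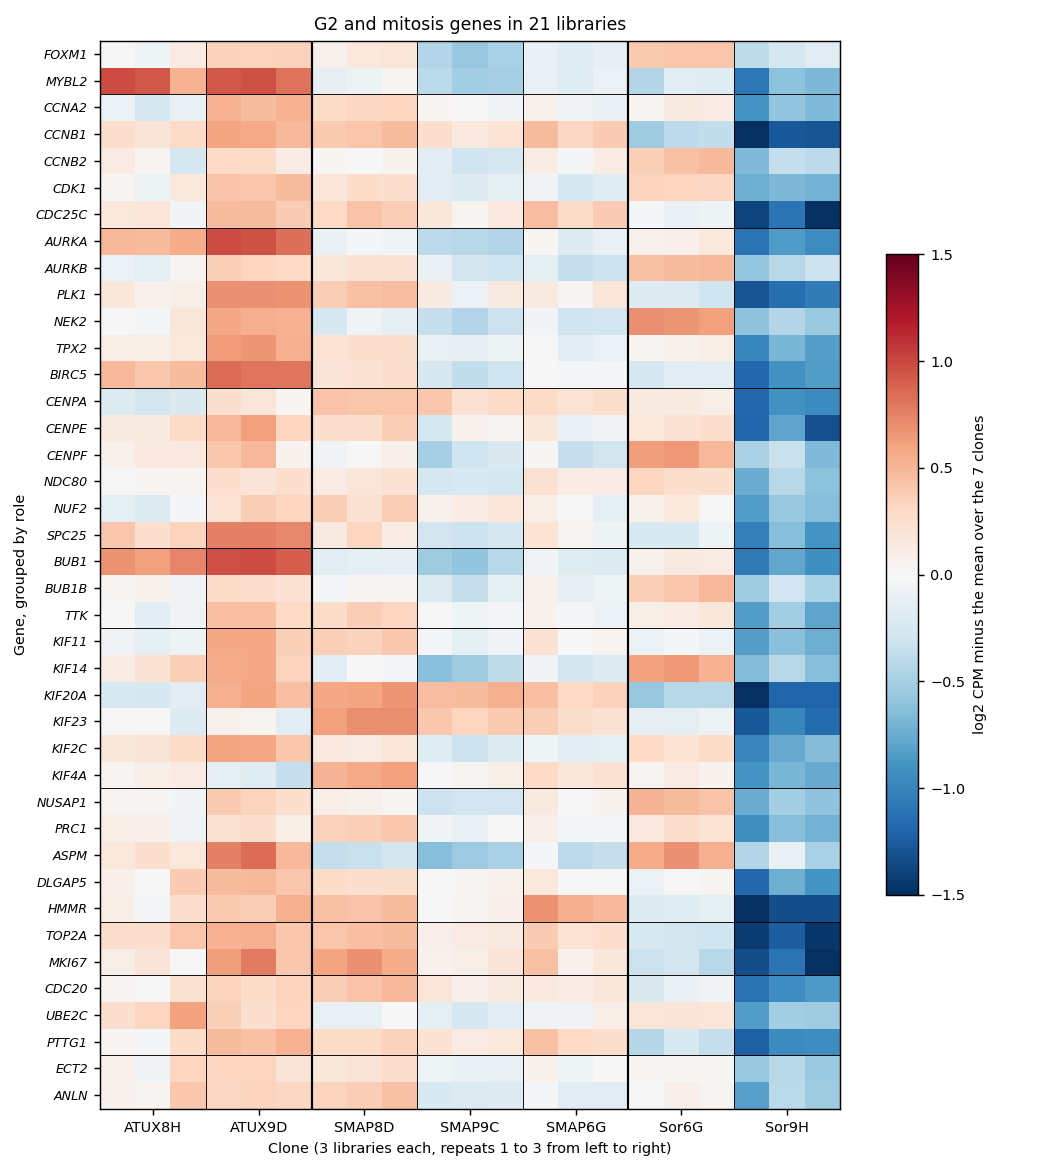
Heat map of the 40 G2 and mitosis genes (rows, grouped by role) in 21 libraries (columns, 3 per clone), as log2 CPM minus the gene's mean over the 7 clones. Sor9H has the lowest clone mean of 38 of 40 genes, while the Sor6G columns are mixed and the ATUX9D columns hold the highest clone mean of 20 genes.

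Of the pair of transcription factors, MYBL2 passed in both comparisons with ATUX and FOXM1 in none. MYBL2 (ENSG00000101057, GRCh38 chromosome 20, 43667019 to 43716496, plus strand) encodes B-MYB, which binds with the MuvB complex to late cell cycle promoters. It was at 141 ± 23.3 CPM in ATUX8H, 149 ± 7.38 in ATUX9D, 76.6 ± 4.08 in SMAP8D, 57.5 ± 2.38 in SMAP9C, 73.2 ± 2.37 in SMAP6G, 66.7 ± 6.80 in Sor6G and 46.5 ± 7.74 in Sor9H. Its 6 ATUX libraries lay above all SMAP and all Sorafenib libraries (lowest, median and highest 114, 152 and 157 CPM under ATUX, 55.8, 73.01 and 81.05 under SMAP and 37.6, 55.4 and 70.9 under Sorafenib). MYBL2 was higher with ATUX than with SMAP (log2 = 1.10 ± 0.19, 95% interval 0.64 to 1.55, edgeR adjusted p = 0.0205) and than with Sorafenib (log2 = 1.38 ± 0.21, 95% interval 0.87 to 1.89, edgeR adjusted p = 0.0078). The call over Sorafenib held in all 18 alternative analyses and the call over SMAP in 16, since it was lost without ATUX9D (log2 = 1.04, edgeR adjusted p = 0.0644) and without SMAP9C (log2 = 0.97, edgeR adjusted p = 0.0592). For SMAP over Sorafenib MYBL2 did not pass (log2 = 0.28 ± 0.19, 95% interval -0.18 to 0.75, edgeR adjusted p = 0.295). FOXM1, a forkhead factor that drives G2 genes, averaged 125 ± 19.8 CPM in the ATUX clones, 99.7 ± 21.4 in the SMAP clones and 118 ± 38.0 in the Sorafenib clones, and its log2 differences were 0.35 for ATUX over SMAP, 0.093 for ATUX over Sorafenib and -0.26 for SMAP over Sorafenib. None passed, and the FOXM1 libraries of each pair of drugs overlapped.

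Of the 5 genes of the mitotic entry switch, CCNB1 passed against Sorafenib in both comparisons. CCNB1 (ENSG00000134057, GRCh38 chromosome 5, 69167010 to 69178245, plus strand) encodes cyclin B1, the partner of CDK1 at mitotic entry. It was at 232 ± 7.64 CPM in ATUX8H, 286 ± 11.8 in ATUX9D, 262 ± 7.20 in SMAP8D, 225 ± 8.05 in SMAP9C, 255 ± 14.6 in SMAP6G, 145 ± 8.87 in Sor6G and 75.2 ± 8.68 in Sor9H. All ATUX and SMAP libraries lay above the Sorafenib libraries (lowest, median and highest 223, 255 and 295 CPM under ATUX, 216, 253 and 270.5 under SMAP and 65.3, 108 and 151 under Sorafenib). CCNB1 was higher with ATUX (log2 = 1.25 ± 0.30, 95% interval 0.52 to 1.97, edgeR adjusted p = 0.0282) and with SMAP (log2 = 1.16 ± 0.28, 95% interval 0.48 to 1.84, edgeR adjusted p = 0.0219) than with Sorafenib. Between ATUX and SMAP it did not pass (log2 = 0.089 ± 0.27, 95% interval -0.56 to 0.74, edgeR adjusted p = 0.865). CCNA2, which encodes cyclin A2, averaged 75.02 ± 23.8 CPM in the ATUX clones, 69.1 ± 9.09 in the SMAP clones and 54.3 ± 20.9 in the Sorafenib clones. For CCNA2 the log2 differences were 0.14 for ATUX over SMAP, 0.48 for ATUX over Sorafenib and 0.34 for SMAP over Sorafenib. CCNB2, which encodes cyclin B2, averaged 62.5 ± 8.06 CPM in the ATUX clones, 56.2 ± 6.16 in the SMAP clones and 60.03 ± 25.5 in the Sorafenib clones, and its log2 differences were near 0, at 0.18 for ATUX over SMAP, 0.075 for ATUX over Sorafenib and -0.10 for SMAP over Sorafenib. For CDK1, the mitotic kinase itself, the averages were 133 ± 25.7 CPM in the ATUX clones, 111 ± 18.5 in the SMAP clones and 104 ± 50.4 in the Sorafenib clones, and the log2 differences 0.29 for ATUX over SMAP, 0.36 for ATUX over Sorafenib and 0.074 for SMAP over Sorafenib. CDC25C, a phosphatase that activates CDK1, had the lowest level per length of the 40 genes (6.45 RPKM over the clones). It averaged 22.4 ± 3.73 CPM in the ATUX clones, 22.6 ± 2.19 in the SMAP clones and 12.4 ± 7.22 in the Sorafenib clones, with log2 differences of 0.02 for ATUX over SMAP, 0.86 for ATUX over Sorafenib and 0.84 for SMAP over Sorafenib, and its SMAP libraries did not overlap the Sorafenib libraries.

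Among the Aurora, Polo and NEK kinases and their partners, BIRC5 alone passed, in ATUX over Sorafenib. BIRC5 (ENSG00000089685, GRCh38 chromosome 17, 78214186 to 78225636, plus strand) encodes survivin, the subunit that brings Aurora B to centromeres. It was at 228 ± 7.15 CPM in ATUX8H, 293 ± 2.83 in ATUX9D, 195 ± 5.05 in SMAP8D, 135 ± 6.24 in SMAP9C, 164 ± 1.98 in SMAP6G, 145 ± 5.55 in Sor6G and 85.2 ± 10.3 in Sor9H. Its lowest ATUX library, at 220.2 CPM, stood above the highest SMAP library (200.4 CPM) and the highest Sorafenib library (148 CPM). BIRC5 was higher with ATUX than with Sorafenib (log2 = 1.195 ± 0.30, edgeR adjusted p = 0.0309), while neither ATUX over SMAP (log2 = 0.69 ± 0.27, 95% interval 0.049 to 1.32, edgeR adjusted p = 0.148) nor SMAP over Sorafenib (log2 = 0.51 ± 0.27, 95% interval -0.14 to 1.16, edgeR adjusted p = 0.191) passed. AURKA, the Aurora kinase of centrosomes and spindle poles, was at 141 ± 4.35 CPM in ATUX8H, 187 ± 10.6 in ATUX9D, 95.4 ± 2.67 in SMAP8D, 74.2 ± 1.27 in SMAP9C, 93.0 ± 6.88 in SMAP6G, 106 ± 3.84 in Sor6G and 51.0 ± 4.50 in Sor9H. Its ATUX libraries also stood above those of the other drugs, without passing the test over SMAP (log2 = 0.93 ± 0.31, 95% interval 0.19 to 1.68, edgeR adjusted p = 0.106) or over Sorafenib (log2 = 1.08 ± 0.35, 95% interval 0.24 to 1.92, edgeR adjusted p = 0.0638). TPX2, which activates Aurora A at the spindle, had the highest level per length of the 40 genes (159 RPKM). It was at 599 ± 14.7 CPM in ATUX8H, 847 ± 37.8 in ATUX9D, 648 ± 6.998 in SMAP8D, 515 ± 9.96 in SMAP9C, 524 ± 30.6 in SMAP6G, 577 ± 14.8 in Sor6G and 313 ± 32.01 in Sor9H, and the libraries of each pair of drugs overlapped (0.39 for ATUX over SMAP, 0.71 for ATUX over Sorafenib and 0.33 for SMAP over Sorafenib on the log2 scale).

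PLK1, the Polo kinase of mitotic entry and spindle assembly, averaged 136 ± 37.9 CPM in the ATUX clones, 118 ± 16.2 in the SMAP clones and 66.1 ± 28.9 in the Sorafenib clones. Its libraries under ATUX and SMAP lay above those under Sorafenib, but neither ATUX over Sorafenib (log2 = 1.06 ± 0.34, 95% interval 0.24 to 1.87, edgeR adjusted p = 0.0633) nor SMAP over Sorafenib (log2 = 0.82 ± 0.32, 95% interval 0.06 to 1.57, edgeR adjusted p = 0.0888) passed. AURKB, the kinase of the chromosomal passenger complex, averaged 36.9 ± 6.90 CPM in the ATUX clones, 31.6 ± 5.89 in the SMAP clones and 35.4 ± 15.1 in the Sorafenib clones. For AURKB the log2 differences were 0.25 for ATUX over SMAP, 0.071 for ATUX over Sorafenib and -0.18 for SMAP over Sorafenib. NEK2, a kinase that parts the centrosomes, averaged 64.7 ± 15.8 CPM in the ATUX clones, 44.1 ± 3.60 in the SMAP clones and 58.7 ± 32.3 in the Sorafenib clones. Its ATUX libraries did not overlap the SMAP libraries, and its log2 differences were 0.58 for ATUX over SMAP, 0.15 for ATUX over Sorafenib and -0.43 for SMAP over Sorafenib, none past the threshold.

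Of the 6 centromere and outer kinetochore genes, SPC25 passed in ATUX over Sorafenib. SPC25 (ENSG00000152253, GRCh38 chromosome 2, 168834132 to 168913371, minus strand) encodes a subunit of the NDC80 complex, which grips microtubules. It was at 22.8 ± 1.146 CPM in ATUX8H, 30.4 ± 0.379 in ATUX9D, 20.7 ± 1.65 in SMAP8D, 14.9 ± 0.305 in SMAP9C, 19.0 ± 1.85 in SMAP6G, 16.1 ± 1.03 in Sor6G and 10.2 ± 1.41 in Sor9H. All ATUX libraries lay above all Sorafenib libraries, while ATUX and SMAP libraries overlapped. SPC25 was higher with ATUX than with Sorafenib (log2 = 1.03 ± 0.29, edgeR adjusted p = 0.0404) and passed neither over SMAP (log2 = 0.57 ± 0.26, 95% interval -0.034 to 1.18, edgeR adjusted p = 0.193) nor for SMAP over Sorafenib (log2 = 0.46 ± 0.26, 95% interval -0.16 to 1.08, edgeR adjusted p = 0.213). CENPF, a kinetochore and nuclear matrix protein with the highest level per length of this group (33.3 RPKM), was at 409 ± 12.8 CPM in ATUX8H, 474 ± 74.2 in ATUX9D, 377 ± 17.0 in SMAP8D, 299 ± 29.7 in SMAP9C, 329 ± 45.9 in SMAP6G, 567 ± 32.5 in Sor6G and 269 ± 31.1 in Sor9H. Its highest clone was Sor6G and its lowest Sor9H, and the libraries of each pair of drugs overlapped (0.43 for ATUX over SMAP, 0.10 for ATUX over Sorafenib and -0.33 for SMAP over Sorafenib on the log2 scale).

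CENPA, the histone H3 variant of centromeres, averaged 38.0 ± 7.13 CPM in the ATUX clones, 48.6 ± 2.92 in the SMAP clones and 30.7 ± 16.1 in the Sorafenib clones. For CENPA the log2 differences were -0.33 for ATUX over SMAP, 0.32 for ATUX over Sorafenib and 0.65 for SMAP over Sorafenib. CENPE, a kinesin of the kinetochore, averaged 112 ± 16.1 CPM in the ATUX clones, 94.3 ± 12.6 in the SMAP clones and 72.1 ± 42.7 in the Sorafenib clones. For CENPE the log2 differences were 0.28 for ATUX over SMAP, 0.66 for ATUX over Sorafenib and 0.38 for SMAP over Sorafenib. NDC80 and NUF2 are the long arm of the NDC80 complex. NDC80 averaged 62.7 ± 6.76 CPM in the ATUX clones, 58.97 ± 9.44 in the SMAP clones and 53.8 ± 22.1 in the Sorafenib clones. For NDC80 the log2 differences were 0.11 for ATUX over SMAP, 0.23 for ATUX over Sorafenib and 0.12 for SMAP over Sorafenib. NUF2 averaged 47.7 ± 9.71 CPM in the ATUX clones, 49.2 ± 5.84 in the SMAP clones and 37.3 ± 13.5 in the Sorafenib clones. For NUF2 the log2 differences were -0.021 for ATUX over SMAP, 0.37 for ATUX over Sorafenib and 0.39 for SMAP over Sorafenib. None of these 4 genes passed in a drug comparison.

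Of the 3 checkpoint kinases, BUB1 passed in ATUX over Sorafenib. BUB1 (ENSG00000169679, GRCh38 chromosome 2, 110637698 to 110678114, minus strand) encodes a kinase that marks centromeric histone H2A. It was at 232 ± 9.50 CPM in ATUX8H, 282 ± 7.67 in ATUX9D, 132 ± 2.3 in SMAP8D, 102 ± 6.61 in SMAP9C, 132 ± 7.38 in SMAP6G, 157 ± 4.21 in Sor6G and 77.2 ± 7.27 in Sor9H. All 6 ATUX libraries lay above the libraries of both other drugs, and the 2 ATUX clone means were the highest of the 7. BUB1 was higher with ATUX than with Sorafenib (log2 = 1.147 ± 0.34, 95% interval 0.34 to 1.95, edgeR adjusted p = 0.0486), and over SMAP it had the largest log2 difference of the 40 genes without passing (log2 = 1.10 ± 0.30, 95% interval 0.39 to 1.82, edgeR adjusted p = 0.0641). SMAP over Sorafenib did not pass (log2 = 0.043 ± 0.30, 95% interval -0.68 to 0.77, edgeR adjusted p = 0.924). BUB1B, which encodes BUBR1 of the checkpoint complex, averaged 82.2 ± 9.75 CPM in the ATUX clones, 70.6 ± 6.09 in the SMAP clones and 77.8 ± 31.5 in the Sorafenib clones. For BUB1B the log2 differences were 0.25 for ATUX over SMAP, 0.093 for ATUX over Sorafenib and -0.15 for SMAP over Sorafenib. TTK, which encodes the checkpoint kinase MPS1, averaged 81.4 ± 18.7 CPM in the ATUX clones, 76.7 ± 11.1 in the SMAP clones and 60.9 ± 24.4 in the Sorafenib clones. For TTK the log2 differences were 0.11 for ATUX over SMAP, 0.43 for ATUX over Sorafenib and 0.32 for SMAP over Sorafenib.

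Among the 6 mitotic kinesins, KIF20A and KIF23 passed in SMAP over Sorafenib and none passed with ATUX. KIF20A (ENSG00000112984, GRCh38 chromosome 5, 138178719 to 138187715, plus strand) encodes a kinesin of the central spindle. It was at 104 ± 2.47 CPM in ATUX8H, 174 ± 8.30 in ATUX9D, 185 ± 5.31 in SMAP8D, 170.5 ± 4.54 in SMAP9C, 156 ± 8.31 in SMAP6G, 87.7 ± 5.11 in Sor6G and 48.9 ± 6.24 in Sor9H. All SMAP and all ATUX libraries stood above the Sorafenib libraries. KIF20A was higher with SMAP than with Sorafenib (log2 = 1.31 ± 0.32, 95% interval 0.55 to 2.07, edgeR adjusted p = 0.0219), and ATUX over Sorafenib did not pass (log2 = 1.05 ± 0.34, 95% interval 0.24 to 1.86, edgeR adjusted p = 0.0632). KIF23 (ENSG00000137807, GRCh38 chromosome 15, 69414246 to 69448427, plus strand) encodes the kinesin of centralspindlin, which acts at the cleavage furrow. It was at 149 ± 11.7 CPM in ATUX8H, 154 ± 13.3 in ATUX9D, 247 ± 7.67 in SMAP8D, 201 ± 6.56 in SMAP9C, 189 ± 10.0 in SMAP6G, 143 ± 3.36 in Sor6G and 71.1 ± 7.33 in Sor9H. The 3 SMAP clones were its 3 highest, and their libraries overlapped neither those of ATUX nor those of Sorafenib. KIF23 was higher with SMAP than with Sorafenib (log2 = 0.97 ± 0.30, 95% interval 0.26 to 1.69, edgeR adjusted p = 0.0452), and ATUX over SMAP did not pass (log2 = -0.46 ± 0.29, 95% interval -1.16 to 0.24, edgeR adjusted p = 0.347).

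KIF11, the kinesin that pushes spindle poles apart, averaged 163 ± 47.5 CPM in the ATUX clones, 153 ± 23.9 in the SMAP clones and 108 ± 34.2 in the Sorafenib clones. For KIF11 the log2 differences were 0.13 for ATUX over SMAP, 0.62 for ATUX over Sorafenib and 0.49 for SMAP over Sorafenib. KIF14, a cytokinesis kinesin, averaged 91.4 ± 11.9 CPM in the ATUX clones, 60.2 ± 9.54 in the SMAP clones and 77.2 ± 41.4 in the Sorafenib clones. For KIF14 the log2 differences were 0.63 for ATUX over SMAP, 0.26 for ATUX over Sorafenib and -0.37 for SMAP over Sorafenib. KIF2C, which takes microtubules apart at centromeres, averaged 125 ± 19.0 CPM in the ATUX clones, 92.7 ± 12.8 in the SMAP clones and 85.8 ± 42.4 in the Sorafenib clones. For KIF2C the log2 differences were 0.46 for ATUX over SMAP, 0.56 for ATUX over Sorafenib and 0.10 for SMAP over Sorafenib. KIF4A, a chromokinesin on chromosome X, averaged 129.9 ± 19.7 CPM in the ATUX clones, 166 ± 30.8 in the SMAP clones and 111 ± 44.98 in the Sorafenib clones. For KIF4A the log2 differences were -0.33 for ATUX over SMAP, 0.24 for ATUX over Sorafenib and 0.57 for SMAP over Sorafenib.

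No spindle microtubule gene passed between drugs. NUSAP1, which bundles spindle microtubules and had the highest level per length of the 5 (39.8 RPKM), was at 112 ± 2.96 CPM in ATUX8H, 139.5 ± 6.03 in ATUX9D, 116 ± 2.82 in SMAP8D, 90.7 ± 1.43 in SMAP9C, 116 ± 5.68 in SMAP6G, 154 ± 3.85 in Sor6G and 72.5 ± 5.69 in Sor9H. Like CENPF, it was highest in Sor6G and lowest in Sor9H. ASPM, a spindle pole protein, was at 149 ± 4.68 CPM in ATUX8H, 213 ± 25.8 in ATUX9D, 105 ± 2.92 in SMAP8D, 89.4 ± 4.74 in SMAP9C, 110.3 ± 15.9 in SMAP6G, 198 ± 11.4 in Sor6G and 104 ± 15.7 in Sor9H. Its ATUX libraries lay above the SMAP libraries, with Sor6G between the ATUX clones (log2 = 0.87 ± 0.29, 95% interval 0.17 to 1.56, edgeR adjusted p = 0.107 for ATUX over SMAP). PRC1, which crosslinks antiparallel microtubules, averaged 223 ± 16.3 CPM in the ATUX clones, 223 ± 36.3 in the SMAP clones and 179 ± 80.8 in the Sorafenib clones. For PRC1 the log2 differences were 0.023 for ATUX over SMAP, 0.33 for ATUX over Sorafenib and 0.31 for SMAP over Sorafenib. DLGAP5, which stabilises kinetochore fibres, averaged 118 ± 17.3 CPM in the ATUX clones, 103 ± 9.10 in the SMAP clones and 71.9 ± 31.0 in the Sorafenib clones. For DLGAP5 the log2 differences were 0.22 for ATUX over SMAP, 0.73 for ATUX over Sorafenib and 0.51 for SMAP over Sorafenib. HMMR, a hyaluronan receptor that also acts on spindle microtubules, averaged 93.8 ± 14.9 CPM in the ATUX clones, 99.9 ± 18.5 in the SMAP clones and 48.9 ± 28.1 in the Sorafenib clones. For HMMR the log2 differences were -0.07 for ATUX over SMAP, 0.95 for ATUX over Sorafenib and 1.02 for SMAP over Sorafenib.

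TOP2A and MKI67, which act on mitotic chromosomes, missed the threshold against Sorafenib although their libraries did not overlap. TOP2A, the topoisomerase that untangles sister chromatids, was at 669.7 ± 43.7 CPM in ATUX8H, 755 ± 35.9 in ATUX9D, 736 ± 16.5 in SMAP8D, 583 ± 11.8 in SMAP9C, 656 ± 42.8 in SMAP6G, 446 ± 11.1 in Sor6G and 208 ± 17.4 in Sor9H. MKI67, the proliferation antigen Ki-67 that coats mitotic chromosomes, was at 514 ± 35.5 CPM in ATUX8H, 736 ± 96.0 in ATUX9D, 737 ± 35.3 in SMAP8D, 520.5 ± 24.6 in SMAP9C, 567 ± 77.2 in SMAP6G, 382 ± 19.0 in Sor6G and 195 ± 26.1 in Sor9H. In both genes the ATUX and SMAP libraries all lay above those of Sorafenib. TOP2A differed by log2 1.13 for ATUX over Sorafenib (edgeR adjusted p = 0.0527) and by 0.99 for SMAP over Sorafenib (edgeR adjusted p = 0.0517). MKI67 differed by 1.14 (edgeR adjusted p = 0.061) and 1.07 (edgeR adjusted p = 0.0505) in the same comparisons. With RLE scaling factors in place of TMM, both passed in SMAP over Sorafenib, which made 6 genes called there. Both also passed in both comparisons with DESeq2 on clone sums, with limma-voom, and with the 21 libraries as replicates. With library totals only or with no filter, neither gene passed. Between ATUX and SMAP their log2 differences were 0.14 and 0.072.

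Among the genes of anaphase and cytokinesis, PTTG1 passed against Sorafenib in both comparisons. PTTG1 (ENSG00000164611, GRCh38 chromosome 5, 160421822 to 160428744, plus strand) encodes securin, the inhibitor of the enzyme that parts sister chromatids. It was at 87.9 ± 10.2 CPM in ATUX8H, 115 ± 3.23 in ATUX9D, 102 ± 2.19 in SMAP8D, 92.0 ± 3.04 in SMAP9C, 104 ± 7.01 in SMAP6G, 65.1 ± 4.48 in Sor6G and 40.2 ± 4.31 in Sor9H. Its ATUX and SMAP libraries all lay above the Sorafenib libraries, and it was higher with ATUX (log2 = 0.96 ± 0.25, 95% interval 0.37 to 1.54, edgeR adjusted p = 0.0325) and with SMAP (log2 = 0.90 ± 0.23, 95% interval 0.36 to 1.45, edgeR adjusted p = 0.0242). CDC20, the activator of the anaphase-promoting complex, was at 163 ± 14.8 CPM in ATUX8H, 191 ± 5.18 in ATUX9D, 207 ± 8.77 in SMAP8D, 169 ± 6.74 in SMAP9C, 169.8 ± 3.90 in SMAP6G, 141 ± 8.16 in Sor6G and 78.5 ± 7.10 in Sor9H. Its ATUX and SMAP libraries did not overlap the Sorafenib libraries, without passing (log2 = 0.70 ± 0.28, 95% interval 0.04 to 1.37, edgeR adjusted p = 0.106 for ATUX over Sorafenib, log2 = 0.72 ± 0.26, 95% interval 0.10 to 1.34, edgeR adjusted p = 0.0719 for SMAP over Sorafenib). UBE2C, the ubiquitin-conjugating enzyme of that complex, averaged 105 ± 4.31 CPM in the ATUX clones, 77.9 ± 4.79 in the SMAP clones and 73.7 ± 28.5 in the Sorafenib clones. Its ATUX libraries lay above all others, and its log2 differences were 0.46 for ATUX over SMAP, 0.52 for ATUX over Sorafenib and 0.067 for SMAP over Sorafenib. ANLN, an actin-binding scaffold of the cleavage furrow, was at 545 ± 81.2 CPM in ATUX8H, 602 ± 6.05 in ATUX9D, 628 ± 22.3 in SMAP8D, 417 ± 5.01 in SMAP9C, 445 ± 23.5 in SMAP6G, 495 ± 12.7 in Sor6G and 324 ± 44.95 in Sor9H and overlapped between all drugs (log2 0.23 for ATUX over SMAP, 0.50 for ATUX over Sorafenib and 0.27 for SMAP over Sorafenib). ECT2, the exchange factor that switches on RhoA at the furrow, averaged 214 ± 16.7 CPM in the ATUX clones, 191 ± 20.9 in the SMAP clones and 159 ± 40.7 in the Sorafenib clones. For ECT2 the log2 differences were 0.19 for ATUX over SMAP, 0.44 for ATUX over Sorafenib and 0.25 for SMAP over Sorafenib.

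**Figure D2:**
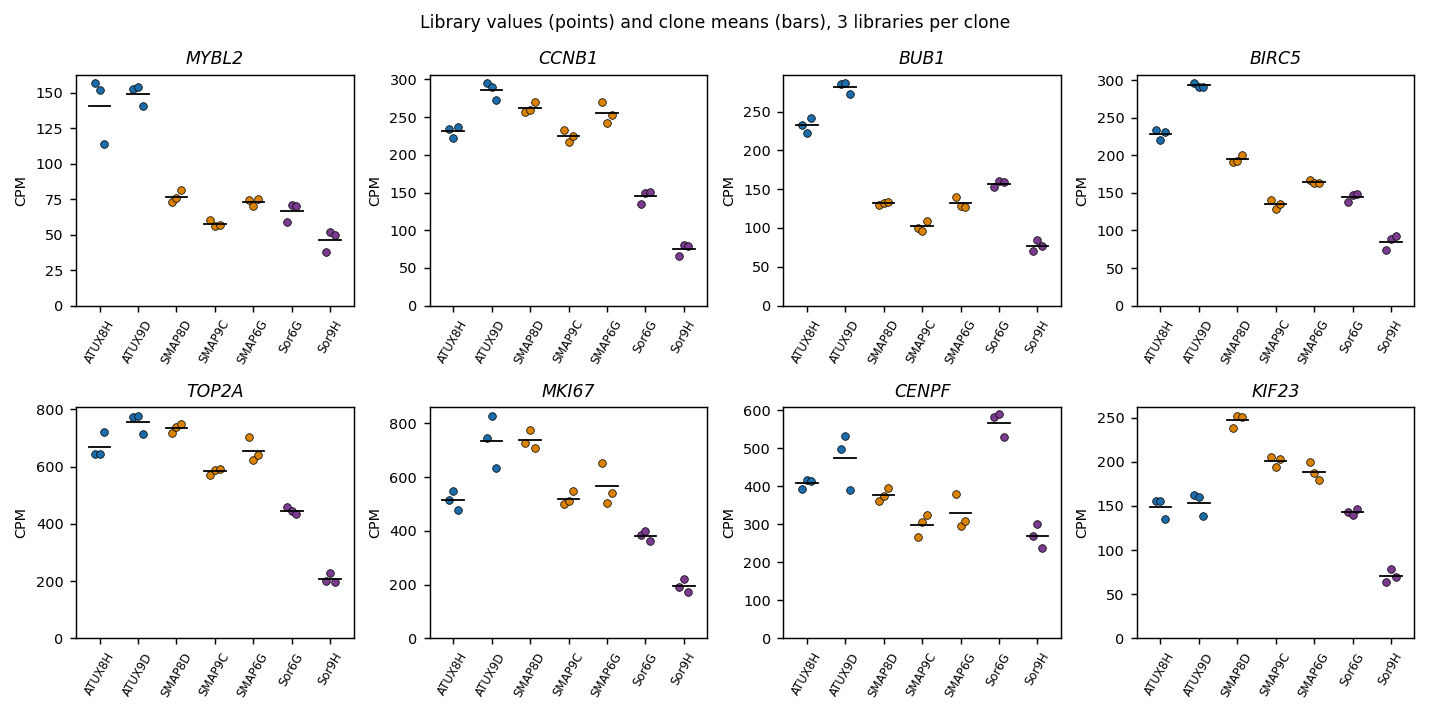
CPM of 8 of the genes in each library (points, coloured by drug) with the mean of each clone (bars), 3 libraries per clone and each axis from 0. MYBL2 and BUB1 are highest in the 2 ATUX clones, CCNB1, TOP2A and MKI67 are lower in both Sorafenib clones, and CENPF is highest in Sor6G and lowest in Sor9H among the 7 clones.

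Over the whole group, few genes passed between drugs. In ATUX over SMAP, 1 of 40 was called, MYBL2, where 10.3% of all genes tested were called, 5.27% as higher and 5.06% as lower. In ATUX over Sorafenib 6 of 40 were called, all higher, where 25.8% of all genes were called, 13.3% as higher and 12.5% as lower. In SMAP over Sorafenib 4 of 40 were called, all higher, where 34.5% of all genes were called, 16.8% as higher and 17.7% as lower. In each comparison the share of the 40 genes called was below the share of all genes called in either direction. Set against genes called higher alone, it was above their share in ATUX over Sorafenib and below it in the other comparisons. The 40 log2 differences had a median of 0.23 in ATUX over SMAP (33 positive, 7 negative, all genes 0.022), 0.52 in ATUX over Sorafenib (40 positive, all genes 0.011) and 0.32 in SMAP over Sorafenib (31 positive, 9 negative, all genes 0.0077). The comparisons share groups of clones and are not independent of each other. Libraries of the drugs did not overlap for 9 genes in ATUX over SMAP (8 higher, 1 lower, against 10.6% and 10.7% of all genes), for 14 in ATUX over Sorafenib (all higher, against 19.2% higher and 20.5% lower of all) and for 11 in SMAP over Sorafenib (all higher, against 20.5% higher and 20.9% lower of all). In the higher direction these shares of the 40 genes without overlap were above those of all genes in each comparison. For the 39 genes not called in ATUX over SMAP at the same 8 µM, the widest reach of the 95% intervals was from -1.16 (KIF23) to 1.82 (BUB1). This reach leaves room for sizeable differences.

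The counts of calls moved with single clones. Where a drug was left with 1 clone, that clone was assumed to vary like the other groups. In ATUX over SMAP no gene was called by edgeR without ATUX9D or without SMAP9C (2 genes at an unadjusted p below 0.05 in each), and 3 were called without Sor6G and likewise without Sor9H, MYBL2, AURKA and BUB1 each time. Of all genes 5.11% were then called without ATUX9D, 3.05% without SMAP9C, 5.74% without Sor6G and 5.81% without Sor9H. In ATUX over Sorafenib 1 gene, MYBL2, was called without ATUX9D or without Sor9H, 3 without SMAP8D, 2 without SMAP6G and 20 without Sor6G. The share of all genes called was 14.1% without ATUX9D, 7.3% without Sor9H, 20.7% without SMAP8D, 22.6% without SMAP6G and 10.9% without Sor6G. Without SMAP6G, which is in neither group of this comparison, BIRC5 (log2 = 1.196, edgeR adjusted p = 0.0507), SPC25 (log2 = 1.035, edgeR adjusted p = 0.0645), BUB1 (log2 = 1.148, edgeR adjusted p = 0.0710) and PTTG1 (log2 = 0.96, edgeR adjusted p = 0.0536) lost the call with log2 differences within 0.05 of those of the main analysis. In SMAP over Sorafenib 15 were called without Sor6G, 2 without SMAP9C, 1 without SMAP6G, and none by edgeR without SMAP8D (6 at an unadjusted p below 0.05). Of all genes 17.2%, 25.6%, 28.4% and 24.5% were called in those analyses, and 14.1% without Sor9H. Without SMAP8D the log2 difference was 1.11 for CCNB1, 1.24 for KIF20A, 0.88 for PTTG1 and 0.85 for KIF23, against 1.16, 1.31, 0.90 and 0.97 in the main analysis. Without Sor9H none of the 4 main calls of SMAP over Sorafenib was kept, and 3 genes were called lower instead, NEK2 (log2 = -0.90, edgeR adjusted p = 0.0478), CENPF (log2 = -0.77, edgeR adjusted p = 0.0465) and ASPM (log2 = -0.97, edgeR adjusted p = 0.0463). The median log2 difference of the 40 genes was then 0.15 in ATUX over Sorafenib and -0.0063 in SMAP over Sorafenib, and without Sor6G it was 0.98 in ATUX over Sorafenib and 0.81 in SMAP over Sorafenib. Of 18 alternative analyses, those that kept the call in ATUX over Sorafenib were 16 for CCNB1, 15 for BIRC5, 14 for SPC25, 13 for PTTG1 and 10 for BUB1, and in SMAP over Sorafenib 15 each for CCNB1, KIF20A and PTTG1 and 9 for KIF23.

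**Figure D3:**
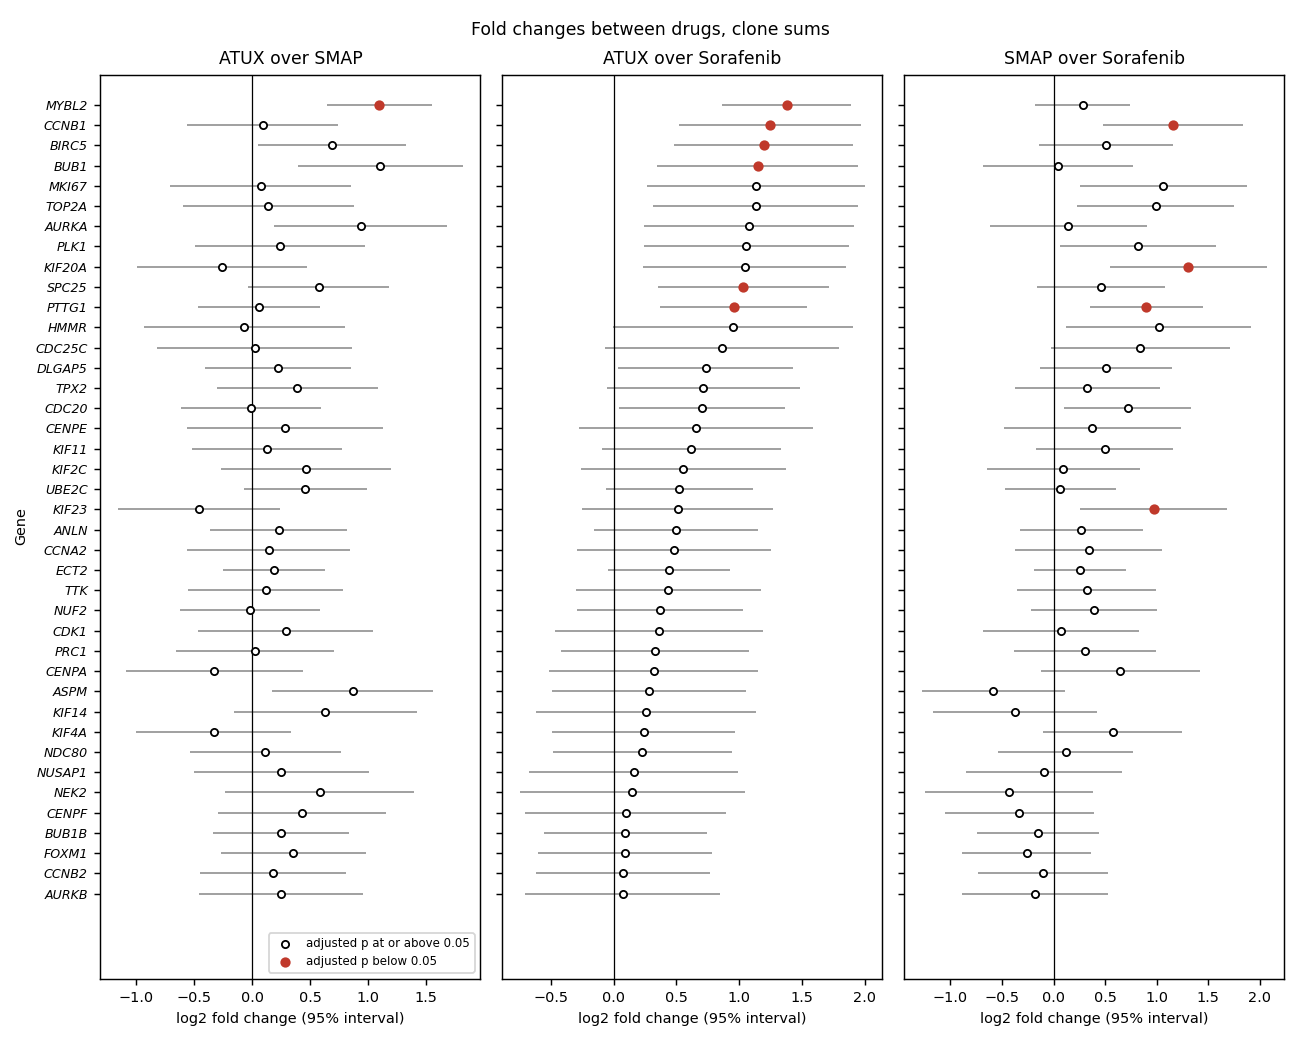
Log2 fold changes of the 40 genes with 95% intervals in the 3 drug comparisons, from sums over the libraries of each clone, with genes ordered by ATUX over Sorafenib. Filled red points passed an adjusted p of 0.05, 1 in ATUX over SMAP, 6 in ATUX over Sorafenib and 4 in SMAP over Sorafenib, and all 40 points lie above 0 in ATUX over Sorafenib.

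The differences between drugs went along with those of neighbouring genes on the chromosome. For each gene, the median log2 difference of the tested non-member genes of at least 5 CPM within 10 Mb was taken. Across the 40 genes, Pearson's r between the gene's own difference and that of its neighbours was 0.779 in ATUX over SMAP, 0.699 in ATUX over Sorafenib and 0.815 in SMAP over Sorafenib (Spearman's rho 0.783, 0.702 and 0.781 in that order). The local medians ran from -0.81 to 0.54 in ATUX over SMAP, from -0.56 to 0.70 in ATUX over Sorafenib and from -0.78 to 0.62 in SMAP over Sorafenib. These are descriptions, since the genes share the same libraries and some share neighbours. All 5 chromosome 5 genes, CCNB1, CDC25C, HMMR, KIF20A and PTTG1, had log2 differences of 0.86 to 1.25 in ATUX over Sorafenib, beside neighbours at 0.51 to 0.60, and of 0.84 to 1.31 in SMAP over Sorafenib, beside neighbours at 0.54 to 0.62. On chromosome 20, MYBL2, AURKA, TPX2 and UBE2C had 0.39 to 1.10 in ATUX over SMAP, beside neighbours at 0.48 to 0.54. KIF23 had -0.46 in ATUX over SMAP, beside neighbours at -0.81, and TOP2A had 1.13 in ATUX over Sorafenib, beside neighbours at 0.70.

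On the long arm of chromosome 1 the neighbours were lower with SMAP than with Sorafenib, and so were the point estimates of the members there, none of which passed. They were -0.58 for ASPM (neighbours -0.62), -0.43 for NEK2 (neighbours -0.63), -0.37 for KIF14 (neighbours -0.63) and -0.33 for CENPF (neighbours -0.78), while NUF2 in the same arm was at 0.39 (neighbours -0.042). Some large differences stood beside neighbours near 0. In ATUX over Sorafenib the genes with a log2 difference above 1 and a local median within 0.05 of 0 were MYBL2 (1.38, neighbours 0.015), BUB1 (1.147, neighbours 0.027), MKI67 (1.14, neighbours 0.018), AURKA (1.08, neighbours 0.022) and PLK1 (1.06, neighbours 0.0088). SPC25 stood at 1.03 beside neighbours at -0.16. BIRC5 stood at 1.195 beside neighbours at 0.55. In ATUX over SMAP, BUB1 stood at 1.10 beside neighbours at 0.45. On the long arm of chromosome 1, ASPM (0.87), KIF14 (0.63), NEK2 (0.58) and CENPF (0.43) had neighbours at 0.50 to 0.54 in that comparison. NUF2 there was at -0.021 beside neighbours at 0.069. The part of the neighbourhood in the members' differences was not tested.

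**Figure D4:**
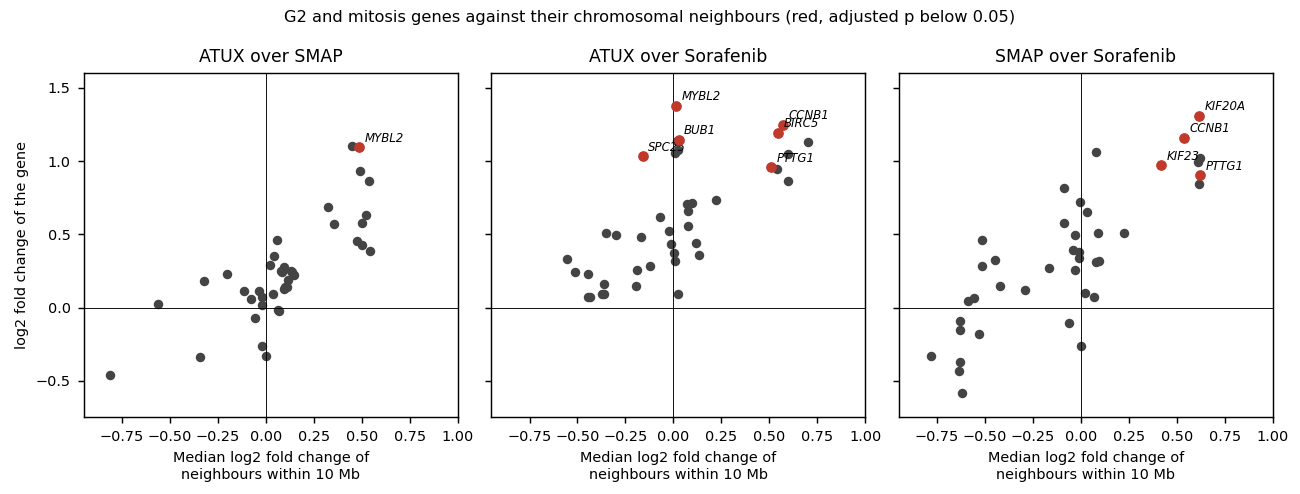
Log2 fold change of each of the 40 genes (vertical) against the median log2 fold change of its neighbours within 10 Mb (horizontal) in the 3 drug comparisons, with called genes in red. Pearson's r is 0.779, 0.699 and 0.815 from the left panel to the right, and all 4 genes called in SMAP over Sorafenib have neighbours at 0.42 or above.

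Between the 2 Sorafenib clones the whole group differed. All 40 genes were higher in Sor6G than in Sor9H, where 16% of all genes tested were called higher and 33.7% called in either direction, and for all 40 the libraries of the clones did not overlap (22.6% of all genes did so in this direction and 25.1% in the other). The log2 differences ran from 0.52 (MYBL2) and 0.53 (ECT2) to 1.29 (CENPE), with a median of 0.90, where the median of all genes was -0.0081. The summed level was 6093, 6279 and 6144 CPM in the 3 libraries of Sor6G, against 3020, 3611 and 3275 CPM in those of Sor9H. All 40 were called in each alternative run for this comparison, including each library left out in turn. The neighbours of the 40 genes had local medians of -0.14 to 0.078 here.

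The 4 largest differences were in genes of the kinetochore, the entry switch, the spindle and the centrosome. CENPE was at 102 ± 3.38 CPM in Sor6G and 41.9 ± 8.27 CPM in Sor9H (log2 = 1.29 ± 0.12, edgeR adjusted p = 1.21e-07). CDC25C was at 17.5 ± 0.539 CPM in Sor6G and 7.32 ± 1.09 CPM in Sor9H (log2 = 1.26 ± 0.093, edgeR adjusted p = 2.10e-10). HMMR was at 68.7 ± 1.41 CPM in Sor6G and 29.0 ± 3.04 CPM in Sor9H (log2 = 1.24 ± 0.074, edgeR adjusted p = 4.91e-12). NEK2 was at 81.5 ± 2.19 CPM in Sor6G, the highest of the 7 clones, and at 35.9 ± 2.18 CPM in Sor9H, the lowest (log2 = 1.18 ± 0.071, edgeR adjusted p = 6.17e-12). Against the mean of the clone's other libraries, all 40 genes were higher in the second Sor9H library (median log2 0.17). In the first Sor9H library 39 were lower (median -0.21).

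Set against the 5 ATUX and SMAP clones, the 2 Sorafenib clones took different places. In Sor9H 38 of the 40 genes lay below the lowest of the 5 clones, where 29.3% of all genes tested lay below and 30.1% above, and the median gene was at 52.5% of their mean. In Sor6G 11 lay below, 20 within and 9 above the range of the 5 clones, where 28.3% of all genes lay below and 28.4% above, and the median gene was at 94% of their mean. The 11 below were CCNB1, CDC25C, PLK1, KIF20A, KIF23, DLGAP5, HMMR, TOP2A, MKI67, CDC20 and PTTG1. The 9 above were FOXM1, CCNB2, AURKB, NEK2, CENPF, NDC80, BUB1B, KIF14 and NUSAP1. FOXM1 and ASPM were the 2 genes within the range in Sor9H.

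The ATUX clones also differed. Of the 40 genes, 33 were lower and 1, KIF4A, higher in ATUX8H than in ATUX9D, where 46.1% of all genes tested were called and 23% as lower, and the median log2 difference was -0.32 (all genes 0.00095). The libraries did not overlap for 30 genes, 29 lower and 1 higher (23.6% and 23.2% of all genes). The 4 largest were KIF20A (log2 = -0.74 ± 0.066, edgeR adjusted p = 1.53e-09), CCNA2 (log2 = -0.66 ± 0.062, edgeR adjusted p = 4.89e-09), KIF11 (log2 = -0.60 ± 0.062, edgeR adjusted p = 2.04e-08) and PLK1 (log2 = -0.57 ± 0.062, edgeR adjusted p = 4.41e-08). CCNA2 was at 58.2 ± 3.59 CPM in ATUX8H and 91.8 ± 1.61 CPM in ATUX9D. KIF11 was at 130 ± 3.78 CPM in ATUX8H and 197 ± 16.8 CPM in ATUX9D. PLK1 was at 109.6 ± 4.03 CPM in ATUX8H and 163 ± 1.28 CPM in ATUX9D. KIF4A, on chromosome X, was at 144 ± 4.24 CPM in ATUX8H and 116 ± 8.29 CPM in ATUX9D (log2 = 0.31 ± 0.056, edgeR adjusted p = 7.16e-05), beside neighbours at a median of 0.86. MYBL2, CENPF, KIF23, UBE2C, ECT2 and ANLN did not pass. Of the libraries, repeat 3 of ATUX8H had 30 of 40 genes above the clone's mean and repeat 3 of ATUX9D had 9. Without both of these libraries 37 genes were called, where 46.3% of all genes were called.

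Within SMAP, SMAP8D was highest. In SMAP8D over SMAP9C 35 of 40 genes were called, all higher (35.1% of all genes called, 17.3% as higher), with a median of 0.35, and the libraries did not overlap for any of the 40, all in that direction (25.3% of all genes). The 4 largest were FOXM1 (log2 = 0.63 ± 0.056, edgeR adjusted p = 5.22e-09), ANLN (log2 = 0.59 ± 0.085, edgeR adjusted p = 1.24e-05), BIRC5 (log2 = 0.53 ± 0.06, edgeR adjusted p = 2.27e-07) and KIF4A (log2 = 0.52 ± 0.056, edgeR adjusted p = 1.05e-07). FOXM1 was at 121 ± 5.26 CPM in SMAP8D, 78.1 ± 3.53 CPM in SMAP9C and 100.2 ± 3.27 CPM in SMAP6G. In SMAP8D over SMAP6G 21 of 40 were called, all higher (34.8% of all genes called, 17.2% as higher), with a median of 0.21, and libraries did not overlap for 23 higher and 1 lower (26.3% and 26.9% of all genes). The called genes were led by ANLN (0.49), AURKB (0.47), CDK1 (0.39) and KIF23 (0.39). In SMAP9C over SMAP6G 18 of 40 were called, all lower (39.7% of all genes called, 19.7% as lower), with a median of -0.16, and libraries did not overlap for 23 lower and 1 higher (27.8% and 27% of all genes). HMMR led here, at 79.3 ± 2.15 CPM in SMAP9C and 115 ± 7.76 CPM in SMAP6G (log2 = -0.54 ± 0.069, edgeR adjusted p = 1.00e-06), before NDC80 (-0.40), BUB1 (-0.37) and FOXM1 (-0.36). Without the first library of SMAP6G, in which 39 of 40 genes were above the clone's mean, 10 were called (33.4% of all genes). Without the second library of SMAP9C 11 were called (32.8% of all genes). In both runs the share of the 40 genes was below that of all genes. The 3 SMAP comparisons share clones.

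Other genes of the same machinery were counted by lists. Of 37 further centromere and kinetochore genes, 30 were higher in Sor6G than in Sor9H and none lower by edgeR (median 0.56), or 81.1% of the list where 33.7% of all genes were called. Between drugs 6 were higher and 2 lower in ATUX over Sorafenib (median 0.57), 7 higher and 2 lower in SMAP over Sorafenib (median 0.31), and 1 was lower in ATUX over SMAP (median 0.16). The shares of the list called were 21.6%, 24.3% and 2.7%, each below the 25.8%, 34.5% and 10.3% of all genes called in those comparisons. The gene lower in ATUX over SMAP was SKA2, a kinetochore subunit, at 17.3 ± 2.80 CPM in the ATUX clones, 31.4 ± 2.38 in the SMAP clones and 28.03 ± 0.993 in the Sorafenib clones (log2 = -0.83 ± 0.15, edgeR adjusted p = 0.0225), and it was also lower with ATUX than with Sorafenib (log2 = -0.68 ± 0.16, edgeR adjusted p = 0.0261). ZWINT, which links kinetochore and checkpoint, averaged 119.8 ± 30.2 CPM in the ATUX clones, 81.3 ± 15.8 in the SMAP clones and 38.6 ± 8.72 in the Sorafenib clones (log2 = 1.65 ± 0.28, edgeR adjusted p = 0.00977 for ATUX over Sorafenib, log2 = 1.07 ± 0.26, edgeR adjusted p = 0.0204 for SMAP over Sorafenib). CENPK (log2 = 1.35 ± 0.33, edgeR adjusted p = 0.0301) and CENPM (log2 = 1.23 ± 0.33, edgeR adjusted p = 0.0387), inner kinetochore subunits, were higher with ATUX than with Sorafenib, and CENPM (log2 = 1.07 ± 0.31, edgeR adjusted p = 0.0373) and SPC24 (log2 = 1.02 ± 0.24, edgeR adjusted p = 0.0179), the partner of SPC25, higher with SMAP than with Sorafenib.

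Of 35 further spindle, kinesin and cytokinesis genes, 32 were higher in Sor6G than in Sor9H and none lower by edgeR (median 0.81), or 91.4% of the list against 33.7% of all genes. The list was also called at 82.9% in ATUX8H over ATUX9D and 74.3% in SMAP8D over SMAP9C (46.1% and 35.1% of all genes). It was called at 62.9% in SMAP8D over SMAP6G and 45.7% in SMAP9C over SMAP6G (34.8% and 39.7% of all genes). In the drug comparisons 1 was higher and 1 lower in ATUX over SMAP (median 0.32), 6 higher in ATUX over Sorafenib (median 0.58), and 6 higher and 2 lower in SMAP over Sorafenib (median 0.32). These were 5.71%, 17.1% and 22.9% of the list, each below the share of all genes (10.3%, 25.8% and 34.5%). SPDL1, which brings dynein to kinetochores, averaged 131 ± 15.4 CPM in the ATUX clones, 156 ± 17.5 in the SMAP clones and 38.6 ± 8.18 in the Sorafenib clones (log2 = 1.77 ± 0.19, edgeR adjusted p = 0.00339 for ATUX over Sorafenib, log2 = 2.00 ± 0.18, edgeR adjusted p = 0.00119 for SMAP over Sorafenib). HAUS1, a subunit of the augmin complex, averaged 22.4 ± 0.962 CPM in the ATUX clones, 24.9 ± 2.07 in the SMAP clones and 8.09 ± 0.255 in the Sorafenib clones (log2 = 1.49 ± 0.15, edgeR adjusted p = 0.00292 and log2 = 1.61 ± 0.14, edgeR adjusted p = 0.00117 in the same comparisons). SPAG5, a spindle protein, was higher with ATUX than with Sorafenib (log2 = 1.41 ± 0.29, edgeR adjusted p = 0.0182), and RCC1, the exchange factor for Ran, higher with SMAP than with Sorafenib (log2 = 1.203 ± 0.17, edgeR adjusted p = 0.00368). Between ATUX and SMAP, HAUS8 was lower (log2 = -1.11 ± 0.24, edgeR adjusted p = 0.0357) and CLASP1 higher (log2 = 0.59 ± 0.13, edgeR adjusted p = 0.0354) with ATUX.

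Of 21 further genes of the G2 to M switch, 15 were higher and 3 lower in Sor6G than in Sor9H (median 0.44), or 85.7% of the list against 33.7% of all genes. The list was also called at 76.2% both in ATUX8H over ATUX9D and in SMAP8D over SMAP9C (46.1% and 35.1% of all genes). It was called at 52.4% in SMAP8D over SMAP6G and 38.1% in SMAP9C over SMAP6G (34.8% and 39.7% of all genes). Between drugs 1 was higher and 1 lower in ATUX over SMAP (median 0.17), 3 higher and 1 lower in ATUX over Sorafenib (median 0.43), and 3 higher and 2 lower in SMAP over Sorafenib (median 0.16). The list was thus called at 9.52%, 19.0% and 23.8%, where all genes were called at 10.3%, 25.8% and 34.5%. CDC25B, a CDK1-activating phosphatase, stood apart in the SMAP clones, at 318 ± 28.4 CPM in the ATUX clones, 827 ± 195 in the SMAP clones and 408 ± 16.3 in the Sorafenib clones. It was lower with ATUX than with SMAP (log2 = -1.35 ± 0.20, edgeR adjusted p = 0.0142) and higher with SMAP than with Sorafenib (log2 = 1.01 ± 0.20, edgeR adjusted p = 0.0107), and by clone it was at 298 ± 48.2 CPM in ATUX8H, 338 ± 21.99 in ATUX9D, 727 ± 10.7 in SMAP8D, 1053 ± 15.9 in SMAP9C, 703 ± 14.4 in SMAP6G, 396 ± 1.73 in Sor6G and 419 ± 16.7 in Sor9H. CDC25A, a related phosphatase that also acts in G1, averaged 24.3 ± 5.12 CPM in the ATUX clones, 6.76 ± 1.53 in the SMAP clones and 6.70 ± 1.44 in the Sorafenib clones, and was higher with ATUX than with SMAP (log2 = 1.88 ± 0.27, edgeR adjusted p = 0.0134) and than with Sorafenib (log2 = 1.87 ± 0.31, edgeR adjusted p = 0.00923). PKMYT1, a kinase that holds CDK1 inactive, averaged 36.4 ± 6.27 CPM in the ATUX clones, 34.03 ± 6.08 in the SMAP clones and 17.4 ± 5.03 in the Sorafenib clones (log2 = 1.08 ± 0.27, edgeR adjusted p = 0.0294 for ATUX over Sorafenib, log2 = 0.96 ± 0.25, edgeR adjusted p = 0.0262 for SMAP over Sorafenib). CKS2, which binds CDK1, was higher with ATUX than with Sorafenib (log2 = 0.84 ± 0.24, edgeR adjusted p = 0.0435). ARPP19, which inhibits PP2A with B55 subunits during mitosis, was lower with SMAP than with Sorafenib (log2 = -0.87 ± 0.11, edgeR adjusted p = 0.00263), and so with ATUX (log2 = -0.47 ± 0.12, edgeR adjusted p = 0.0306).

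Genes of the preceding phase were mostly lower in both Sorafenib clones. Of 41 genes of G1 to S and replication, 34 were higher and none lower by edgeR in ATUX over Sorafenib (median 1.44), 29 higher and 1 lower in SMAP over Sorafenib (median 1.10), 5 higher and 1 lower in ATUX over SMAP (median 0.30), and 30 higher and 1 lower in Sor6G over Sor9H (median 0.36). Of all genes 13.3% were called higher in ATUX over Sorafenib, 16.8% in SMAP over Sorafenib, 5.27% in ATUX over SMAP and 16% in Sor6G over Sor9H. In Sor6G 35 of the 41 lay below the range of the 5 ATUX and SMAP clones (28.3% of all genes), and in Sor9H 39 (29.3% of all genes), with the median gene at 45.5% of the mean of those clones in Sor6G and 36.7% in Sor9H. The difference between the mean log2(CPM + 1) of the G2 and mitosis genes and that of the replication genes was 1.30 ± 0.0406 in ATUX8H, 1.25 ± 0.0286 in ATUX9D, 1.30 ± 0.0106 in SMAP8D, 1.45 ± 0.0206 in SMAP9C, 1.38 ± 0.0686 in SMAP6G, 2.23 ± 0.0332 in Sor6G and 1.67 ± 0.0461 in Sor9H. It was thus largest in Sor6G, with no overlap between the libraries of the Sorafenib clones and the rest. CDC6, which loads the replicative helicase, averaged 65.9 ± 6.57 CPM in the ATUX clones, 44.1 ± 8.45 in the SMAP clones and 12.1 ± 1.602 in the Sorafenib clones (log2 = 2.46 ± 0.22, edgeR adjusted p = 0.0026 for ATUX over Sorafenib, log2 = 1.86 ± 0.21, edgeR adjusted p = 0.00198 for SMAP over Sorafenib). CCNE2, which encodes cyclin E2, averaged 46.0 ± 15.0 CPM in the ATUX clones, 19.0 ± 7.33 in the SMAP clones and 5.52 ± 0.167 in the Sorafenib clones (log2 = 3.07 ± 0.42, edgeR adjusted p = 0.00584 and log2 = 1.77 ± 0.38, edgeR adjusted p = 0.0144 in the same comparisons). RRM2, a subunit of ribonucleotide reductase, was higher with ATUX than with Sorafenib (log2 = 2.43 ± 0.32, edgeR adjusted p = 0.00529). The repressor E2F8 was higher with SMAP than with Sorafenib (log2 = 1.79 ± 0.49, edgeR adjusted p = 0.0318). Between ATUX and SMAP, E2F7, a related repressor, was higher (log2 = 1.31 ± 0.27, edgeR adjusted p = 0.0332) and POLA1, a DNA polymerase subunit encoded on chromosome X, lower (log2 = -1.30 ± 0.15, edgeR adjusted p = 0.00897) with ATUX.

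**Figure D5:**
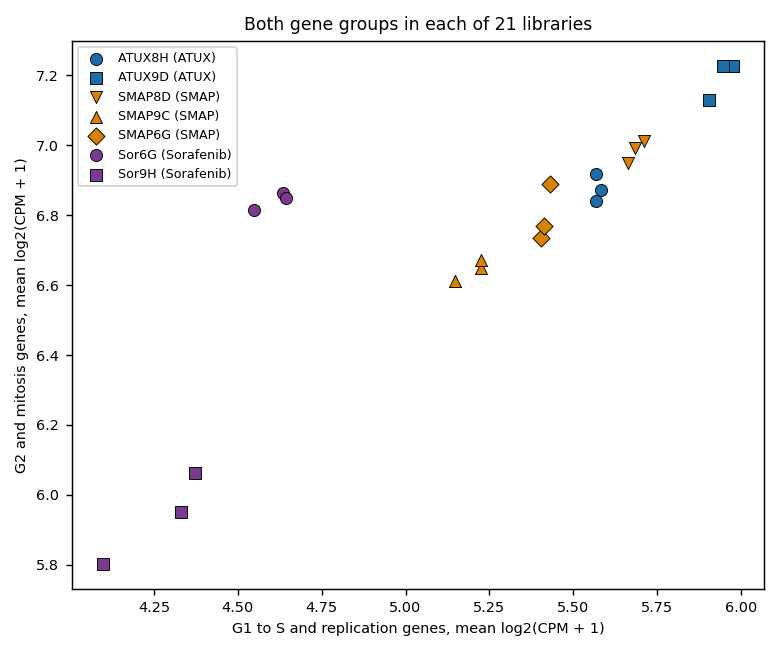
Mean log2(CPM + 1) of the 40 G2 and mitosis genes (vertical) against that of 41 G1 to S and replication genes (horizontal) in each of the 21 libraries, by clone. The Sor6G libraries sit at 6.82 to 6.86 on the vertical axis, among the ATUX and SMAP libraries, but at 4.55 to 4.65 on the horizontal axis, below all of them, and the Sor9H libraries are lowest on both axes.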

How the data were processed

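The deposited table holds raw counts per gene, made by the authors on GRCh38. Listed per the submitters' processing notes were featureCounts 1.5.3, STAR 2.5.2b, cutadapt 1.15, SAMtools 1.5 and Bowtie2 2.3.3.1, with no roles or order. Per the labels' protocols, libraries were stranded and made from poly-A RNA. Not given in the sources used here are the release of the gene annotation, whether counting used strand, and how multiply matching reads were treated, which can shift the counts of overlapping genes or near-identical copies. Gene positions and lengths came from the table. Its GC percent per gene, as deposited by the authors, was not used.

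Drugs were compared with edgeR 4.0.16 (R 4.3.3) quasi-likelihood tests on the summed counts of each clone's 3 libraries, with TMM factors, filterByExpr and robust fitting. Clones were compared on all 21 libraries. A call is an adjusted p below 0.05, with Benjamini-Hochberg adjustment over all genes tested. Log2 values are given ± SE. RPKM used the deposited gene lengths. The alternatives included limma 3.58.1 and DESeq2 1.42.0. Counts of repeats of a clone differed by more than sampling noise (smallest chi-square per degree of freedom 2.26), so every library was kept. Libraries held 21022621 to 27691256 counts.

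Same-numbered libraries of ATUX8H and ATUX9D deviated together from their clone means over genes (correlations 0.122, 0.154 and 0.21), so that the numbers pair these clones by the data alone. In no other pair of clones of the same drug were all 3 correlations above 0.1. They were 0.102, 0.079 and 0.081 for Sor6G and Sor9H, and -0.043 to 0.037 in the SMAP pairs. Pairs of clones of different drugs were not looked at one by one.

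The 40 genes and all lists were chosen with earlier results of these data known. All 40 are given. Those with values of all 7 clones are, in each drug comparison, the called genes (filled up to 6 by smallest p) and the gene with the highest RPKM of each role. In clone comparisons the 4 largest called genes, and in other lists the 3 largest called genes per drug comparison, are named. No set test was made.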

Additional observations from a re-analysis of the deposited data

How the results depend on the processing

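No log2 fold change of a called gene turned its sign in the alternatives run. The counts of calls are given for ATUX over SMAP, ATUX over Sorafenib and SMAP over Sorafenib in that order. They were 1, 6 and 4 in the main analysis, 1, 6 and 6 with RLE factors, 1, 5 and 3 with library totals only or with no filter, 4, 11 and 9 with DESeq2 on clone sums, and 6, 22 and 16 with limma-voom on libraries, where clone was a random block. With 21 libraries as replicates and no clone term they were 11, 25 and 20, and with the repeat number as a replicate block added 11, 24 and 19. The shares of all genes called, in the same order, were 10.3%, 25.8% and 34.5% in the main analysis, 10.3%, 25.7% and 34.6% with RLE factors, 9.93%, 25.3% and 34.2% with library totals, 5.88%, 12.9% and 17.7% of 32697 genes with no filter, 5.96%, 10.2% and 12.3% of 58233 genes with DESeq2, 25.1%, 41.2% and 47.4% with limma-voom, 53.4%, 66.2% and 70% with libraries as replicates, and 52%, 65.2% and 68.8% with the block. The share of the 40 genes was thus below that of all genes in every comparison with 21 libraries as replicates, with or without the block. Both of these fits count the libraries of a clone as independent of each other. With limma-voom the share was above that of all genes in ATUX over Sorafenib and below it in the other comparisons. The DESeq2 shares are taken over all rows, also genes without counts, and cannot be set beside shares of tested genes. The order also turned with some clones left out, as the counts and shares above show. Leaving out each clone in turn gave 0 to 3, 1 to 20 and 0 to 15 (3.05% to 7.84%, 7.3% to 22.6% and 14.1% to 34.7% of all genes), and leaving out each repeat number 1, 6 to 7 and 4 to 5. Between clones, the replicate block left 34 calls for ATUX8H over ATUX9D, 40 for Sor6G over Sor9H, 34 for SMAP8D over SMAP9C, 21 for SMAP8D over SMAP6G and 18 for SMAP9C over SMAP6G, against 34, 40, 35, 21 and 18 without it. Leaving out each library in turn gave 30 to 36, 40, 29 to 34, 18 to 23 and 10 to 19 in the same order, with 26.4% to 45% of all genes called. The causes of the moves were not tested. With 2 or 3 clones per drug, the number of clones limits the drug comparisons.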

Other observations

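Among genes that govern the exit from mitosis, those of the anaphase-promoting complex were called between drugs at shares near those of all genes. Of 18 genes of the anaphase-promoting complex and its partners, 1 was higher and 1 lower in ATUX over SMAP, 2 higher and 2 lower in ATUX over Sorafenib, and 5 higher and 1 lower in SMAP over Sorafenib, with medians of -0.034, 0.23 and 0.092 on the log2 scale. These were 11.1%, 22.2% and 33.3% of the list, where 10.3%, 25.8% and 34.5% of all genes were called. CDC16, a scaffold subunit, averaged 114 ± 25.1 CPM in the ATUX clones, 125 ± 10.8 in the SMAP clones and 41.3 ± 2.68 in the Sorafenib clones (log2 = 1.48 ± 0.18, edgeR adjusted p = 0.00454 for ATUX over Sorafenib, log2 = 1.58 ± 0.17, edgeR adjusted p = 0.00191 for SMAP over Sorafenib). CDC23, another scaffold subunit, was higher with ATUX (log2 = 0.80 ± 0.12, edgeR adjusted p = 0.00773) and with SMAP (log2 = 0.81 ± 0.12, edgeR adjusted p = 0.00373) than with Sorafenib. Of 22 condensin and cohesin genes, 1 was higher and 2 lower in ATUX over SMAP, 6 higher and 1 lower in ATUX over Sorafenib, and 4 higher and 1 lower in SMAP over Sorafenib, or 13.6%, 31.8% and 22.7% of the list against the same shares of all genes. SMC1A, a cohesin subunit encoded on chromosome X, averaged 248 ± 57.3 CPM in the ATUX clones, 328 ± 24.8 in the SMAP clones and 105 ± 11.6 in the Sorafenib clones (log2 = 1.26 ± 0.18, edgeR adjusted p = 0.0065 for ATUX over Sorafenib, log2 = 1.63 ± 0.17, edgeR adjusted p = 0.00176 for SMAP over Sorafenib). MAU2 and NIPBL load cohesin. MAU2 averaged 19.5 ± 0.54 CPM in the ATUX clones, 55.01 ± 11.5 in the SMAP clones and 57.1 ± 1.07 in the Sorafenib clones, and NIPBL 124 ± 7.88 CPM in the ATUX clones, 267 ± 35.7 in the SMAP clones and 127 ± 0.938 in the Sorafenib clones, and both were lower with ATUX than with SMAP (log2 = -1.47 ± 0.18, edgeR adjusted p = 0.0103 for MAU2, log2 = -1.07 ± 0.14, edgeR adjusted p = 0.0113 for NIPBL). In the same lists, ANAPC1 was higher (log2 = 0.55 ± 0.13, edgeR adjusted p = 0.0473) and UBE2D1 lower (log2 = -0.80 ± 0.13, edgeR adjusted p = 0.0184) with ATUX than with SMAP, as was STAG1 higher (log2 = 0.48 ± 0.11, edgeR adjusted p = 0.0443). Against Sorafenib, ANAPC16 was lower (log2 = -0.59 ± 0.12, edgeR adjusted p = 0.0179) and CDCA5, which encodes sororin, higher (log2 = 1.25 ± 0.35, edgeR adjusted p = 0.0421) with ATUX, and ANAPC15 (log2 = 0.69 ± 0.16, edgeR adjusted p = 0.0182) and STAG2 (log2 = 1.46 ± 0.27, edgeR adjusted p = 0.00863) were higher with SMAP.

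Of 18 tested genes for CDK inhibitors, pocket proteins, D-type cyclins and p53 targets, 3 were higher and 1 lower in ATUX over SMAP, 4 higher and 5 lower in ATUX over Sorafenib, and 1 higher and 3 lower in SMAP over Sorafenib. The shares of the list called were 22.2%, 50.0% and 22.2%, where those of all genes were 10.3%, 25.8% and 34.5%. CDKN1B, which encodes the CDK inhibitor p27, was at 40.3 ± 7.76 CPM in ATUX8H, 46.0 ± 8.08 in ATUX9D, 44.8 ± 1.44 in SMAP8D, 54.7 ± 1.38 in SMAP9C, 51.2 ± 2.12 in SMAP6G, 122 ± 3.40 in Sor6G and 146 ± 2.82 in Sor9H. Both Sorafenib clones stood above all others (log2 = -1.63 ± 0.15, edgeR adjusted p = 0.00265 for ATUX over Sorafenib, log2 = -1.43 ± 0.13, edgeR adjusted p = 0.00125 for SMAP over Sorafenib), and Sor6G and Sor9H did not differ past the threshold (log2 = -0.26 ± 0.098, edgeR adjusted p = 0.0504). CDKN1A, which encodes the inhibitor p21, averaged 138 ± 5.70 CPM in the ATUX clones, 65.1 ± 18.8 in the SMAP clones and 48.0 ± 3.73 in the Sorafenib clones, and was higher with ATUX than with SMAP (log2 = 1.11 ± 0.23, edgeR adjusted p = 0.0316) and than with Sorafenib (log2 = 1.54 ± 0.26, edgeR adjusted p = 0.0096). MDM2, the ubiquitin ligase of p53 (log2 = 1.05 ± 0.21, edgeR adjusted p = 0.0292), and CCND3, which encodes cyclin D3 (log2 = 0.79 ± 0.19, edgeR adjusted p = 0.0457), were higher with ATUX than with SMAP. CCNG1, which encodes cyclin G1, was higher with ATUX (log2 = 1.16 ± 0.17, edgeR adjusted p = 0.00631) and with SMAP (log2 = 1.01 ± 0.16, edgeR adjusted p = 0.00485) than with Sorafenib. CCND2, which encodes cyclin D2, was lower with SMAP than with Sorafenib (log2 = -3.15 ± 0.84, edgeR adjusted p = 0.028) at averages below 1 CPM in every drug.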
